A study of Mus musculus with 12 samples.

Results

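Marker genes of macrophages and other myeloid cells were followed in cultured adipocytes that carried wild-type or mutant PPARγ, the nuclear receptor that drives fat cell differentiation. The group was a fixed list of 33 gene symbols, and all 33 were found among the 55573 genes of the read count table. RNA-seq had been run on 12 libraries, 4 from each of 3 genotypes. Stromal vascular fraction (SVF) cells, the mixed non-fat cells released from subcutaneous fat by collagenase, were washed free of non-adherent cells, differentiated with insulin, triiodothyronine, IBMX, dexamethasone and indomethacin, moved to a maintenance medium with insulin and triiodothyronine at day 4, and harvested at day 8. The donors were C57BL/6 mice, either wild type (WT), homozygous for T166A (TA), in which the phosphorylated threonine is an alanine, or homozygous for T166D (TD), in which an aspartic acid mimics the phosphate. Both mutations were global knock-ins made by CRISPR-Cas9, so every cell of the culture carried them, not the adipocytes alone. How many mice or separate cultures stand behind the 4 libraries of a genotype was not given in the sources used here, so p-values measure the spread between these libraries. Totals ran from 16553324 to 20324286 counts per library and were higher in WT (18823619 to 20324286) than in TA (16950175 to 18182526) or TD (16553324 to 18357864).

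Macrophages are the main immune cells of adipose tissue, where they clear dying fat cells, take up lipid and iron, and present signals to their neighbours. They form part of the SVF and adhere to plastic, so a culture grown from SVF can hold them beside preadipocytes and adipocytes. Their identity rests on PU.1, a transcription factor encoded by Spi1, and their survival on signalling through the CSF1 receptor, encoded by Csf1r. PPARγ itself is expressed in macrophages as well as in fat cells. In bulk RNA, fewer macrophages in a culture and less RNA of these genes per macrophage cannot be told apart.

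The list was present at a low but measurable level in every library. Its 33 genes took 0.0512 to 0.197% of all counts per library, and the summed level was 1234 ± 433 CPM (read counts scaled to the size of the library) in WT, 905 ± 345 CPM in TA and 1633 ± 174 CPM in TD (mean ± SD, n = 4). In WT the sum was 1098, 1796, 1282 and 760 CPM in replicates 1 to 4. In TA it was 811, 534, 1363 and 913 CPM. In TD it was 1893, 1566, 1534 and 1537 CPM. TD libraries lay above every TA library, whereas WT replicate 2 reached into the range of TD and TA replicate 3 exceeded 3 of the 4 WT libraries. The adipocyte markers, by comparison, summed to 6641 to 14000 CPM per library over 6 genes.

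Compared per kilobase of exon, with every annotated exon base of a gene counted once, 3 genes stood above the rest. Lyz2, which encodes the lysozyme of macrophages (chr10:117277331-117282321, minus strand, GRCm38), had a median of 287.5 CPM per kb over the 12 libraries. Lgals3, encoding the glycan-binding protein galectin-3, followed with 120 CPM per kb. Gpnmb, a lysosomal glycoprotein of lipid-laden macrophages, had 34.3 CPM per kb. Fat cells and fibroblasts can also make Lgals3 and Gpnmb, so these genes mark macrophages less strictly than Lyz2. Next in order came Cd68 (22.7 CPM per kb), the lysosomal macrosialin, and Ctss (21.8 CPM per kb), the protease cathepsin S, and Marco (20.6 CPM per kb), a scavenger receptor, and their values differed by less than the spread between libraries. The 3 C1q genes lay together on chromosome 4 and had similar levels, 16.4 CPM per kb for C1qb, 13.1 for C1qa and 7.24 for C1qc. Adgre1, which encodes the F4/80 antigen, had 12.02 CPM per kb, and Fcgr3 had 10.7. Other receptors and regulators were lower, with 2.95 CPM per kb for Csf1r, 2.05 for Itgam (the integrin CD11b), 1.36 for Spi1 and 0.301 for Ptprc (CD45, shared by all leukocytes). The low value of Ptprc comes with 18.3 kb of annotated exon, and its median of 5.51 CPM was above that of Spi1 (3.67 CPM). The value of Csf1r is uncertain, because its exons overlap Hmgxb3 on the opposite strand, a gene with a mean of 606 counts against 341 for Csf1r, and the strand setting of the counting was not given in the sources used here.

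A filter on low counts left 27 of the 33 genes for testing. The other 6 were close to zero in every library. Ccr2 and Cx3cr1, the chemokine receptors of circulating and patrolling monocytes, had 0 to 1 and 0 to 2 counts per library. Itgax, encoding CD11c of dendritic cells and lipid-associated macrophages, had 0 to 7 counts. Trem2, a lipid receptor of tissue macrophages, had 0 to 9 counts, although its adaptor Tyrobp (DAP12) was measured in all libraries at 41 to 247 counts. Lyz1 had 1 to 13 counts. Its sequence is close to that of its neighbour Lyz2, so reads shared by the pair could be lost or split in the counting, and the same holds for the Fcgr receptor genes. Clec7a, the β-glucan receptor dectin-1, had 1, 7, 3 and 3 counts in WT, 0, 0, 7 and 1 in TA and 15, 12, 9 and 10 in TD. Its TD libraries thus all held more counts than any other library, but at a level that was too low for the test. Aif1, the macrophage protein IBA1, passed the filter with only 0 to 16 counts per library.

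PU.1 binds purine-rich sites, so the 250 bases upstream of the RefSeq start of each gene were searched for the core letters GAGGAA on both strands. RefSeq windows (GRCm38.p6) matched 26 of the 33 genes, with 31 windows among them; Spi1, Csf1r, Adgre1, Tyrobp, C1qa, Cd14 and Msr1 had none. The core was found in 17 of the 31 windows (54.8%), from 15 of the 26 genes, and in 23.3% of all 32851 windows of the same length. These counts describe the letters and do not show binding. Windows of 4 genes are printed as examples, with the core or its reverse complement TTCCTC in capitals: C1qb (chr4:136886201-136886450, minus strand), Mrc1 (chr2:14229164-14229413, plus strand), F13a1 (chr13:37050245-37050494, minus strand) and Cd163 (chr6:124304401-124304650, plus strand). The window of Lyz2, which is not printed, held no match. Each is written 5′ to 3′ toward its gene, and Cd163 holds no match in this window.
C1qb: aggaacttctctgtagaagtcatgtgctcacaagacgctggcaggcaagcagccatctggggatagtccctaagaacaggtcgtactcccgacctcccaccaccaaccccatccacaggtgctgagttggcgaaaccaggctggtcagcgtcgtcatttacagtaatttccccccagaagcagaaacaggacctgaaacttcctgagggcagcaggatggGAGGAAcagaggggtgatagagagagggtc
Mrc1: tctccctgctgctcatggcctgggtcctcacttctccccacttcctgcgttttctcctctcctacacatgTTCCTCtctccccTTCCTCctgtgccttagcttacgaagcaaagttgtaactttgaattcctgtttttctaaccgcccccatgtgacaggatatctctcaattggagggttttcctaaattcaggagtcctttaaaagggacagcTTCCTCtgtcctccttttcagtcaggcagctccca
F13a1: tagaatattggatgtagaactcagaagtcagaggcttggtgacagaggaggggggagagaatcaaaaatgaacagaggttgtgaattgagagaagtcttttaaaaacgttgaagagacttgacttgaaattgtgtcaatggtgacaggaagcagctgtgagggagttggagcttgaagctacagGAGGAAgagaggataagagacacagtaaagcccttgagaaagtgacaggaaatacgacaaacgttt
Cd163: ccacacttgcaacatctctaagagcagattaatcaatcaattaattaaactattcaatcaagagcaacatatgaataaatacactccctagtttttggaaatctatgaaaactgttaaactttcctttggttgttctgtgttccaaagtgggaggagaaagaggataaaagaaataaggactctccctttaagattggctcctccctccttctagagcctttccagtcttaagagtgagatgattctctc

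Within each genotype the genes moved up and down together from library to library. WT replicate 2 had the highest CPM of its genotype for 24 of the 27 tested genes, the exceptions being Aif1, Lgals3 and F13a1. WT replicate 4 was the lowest for 26, the exception being Cd163. In TA, replicate 3 was the highest for 25 genes, all but Cd163 and Lgals3, and replicate 2 was the lowest for 26, all but Tyrobp. TD libraries were more alike, with replicate 1 the highest for 20 genes. Over all tested genes, the share for which a given library was the highest of its genotype ran only from 21.4% for TA replicate 1 to 28.1% for TA replicate 3. The median ratio of the highest to the lowest library was 3.53 in WT, 3.99 in TA (26 genes without a zero) and 1.52 in TD. The median SD of log2 CPM was 0.74 in WT, 0.84 in TA and 0.28 in TD, against 0.17, 0.20 and 0.14 over all tested genes.

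**Figure D1:**
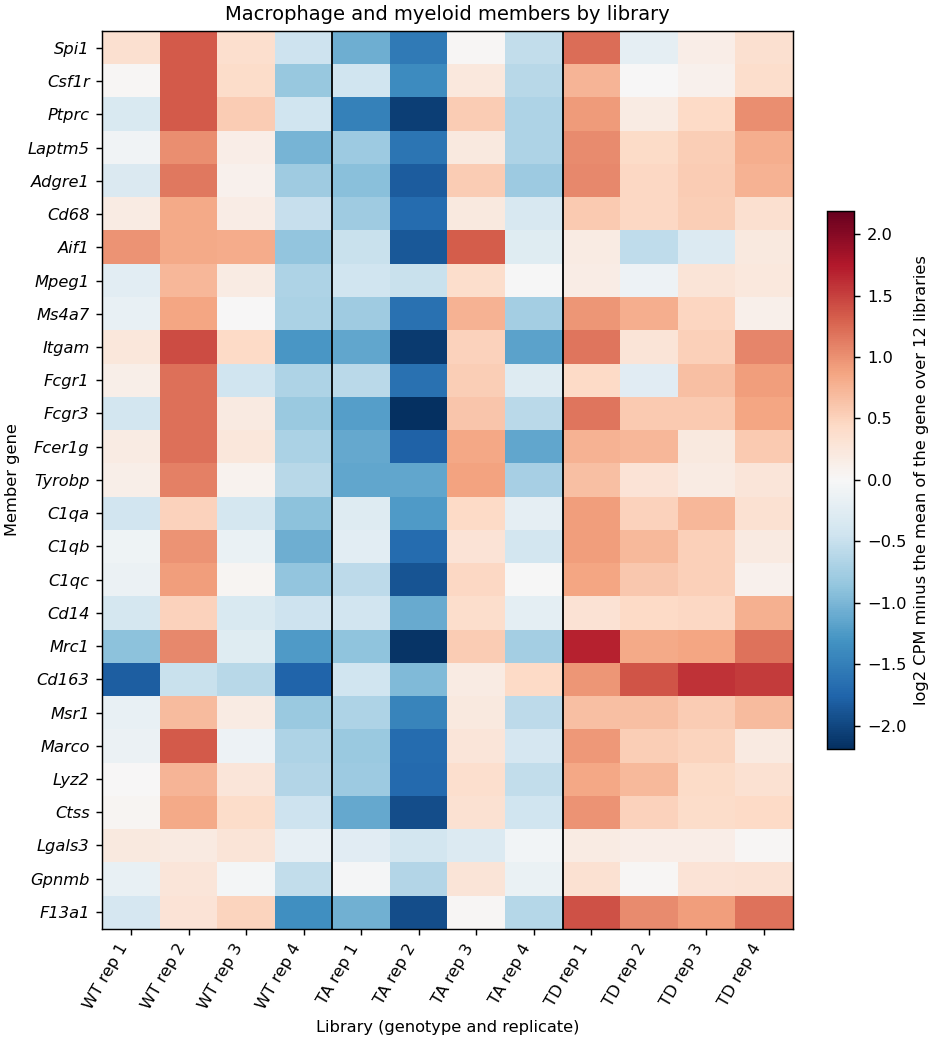
Heat map of the 27 tested genes (rows, by role) in the 12 libraries (columns, by genotype), coloured by log2 CPM minus the mean of that gene over all libraries. WT replicate 2 and TA replicate 3 stand above the other libraries of their genotypes, TA replicate 2 is the lowest library for most genes, and the TD libraries are more even.

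Adgre1 followed the other genes most closely. After the mean of each genotype was removed, its log2 CPM had a Pearson r of 0.987 with the mean of the other 26 genes over the 12 libraries, and Fcgr3, a low-affinity IgG receptor, had an r of 0.986. Of the 27 genes, 25 had an r above 0.8 with the mean of the others. Cd163 (r = 0.701) and Lgals3 (r = 0.520) were the exceptions. Among the 15082 other tested genes whose symbol is no member, 2.77% had an r above 0.8 with the members' mean. Between pairs of members the median r was 0.883 (351 pairs, 0.269 to 0.991), and it stayed between 0.840 and 0.903 when each library was left out in turn. These correlations are descriptions over 12 libraries with a common scaling, and the genes are not independent of each other.

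**Figure D2:**
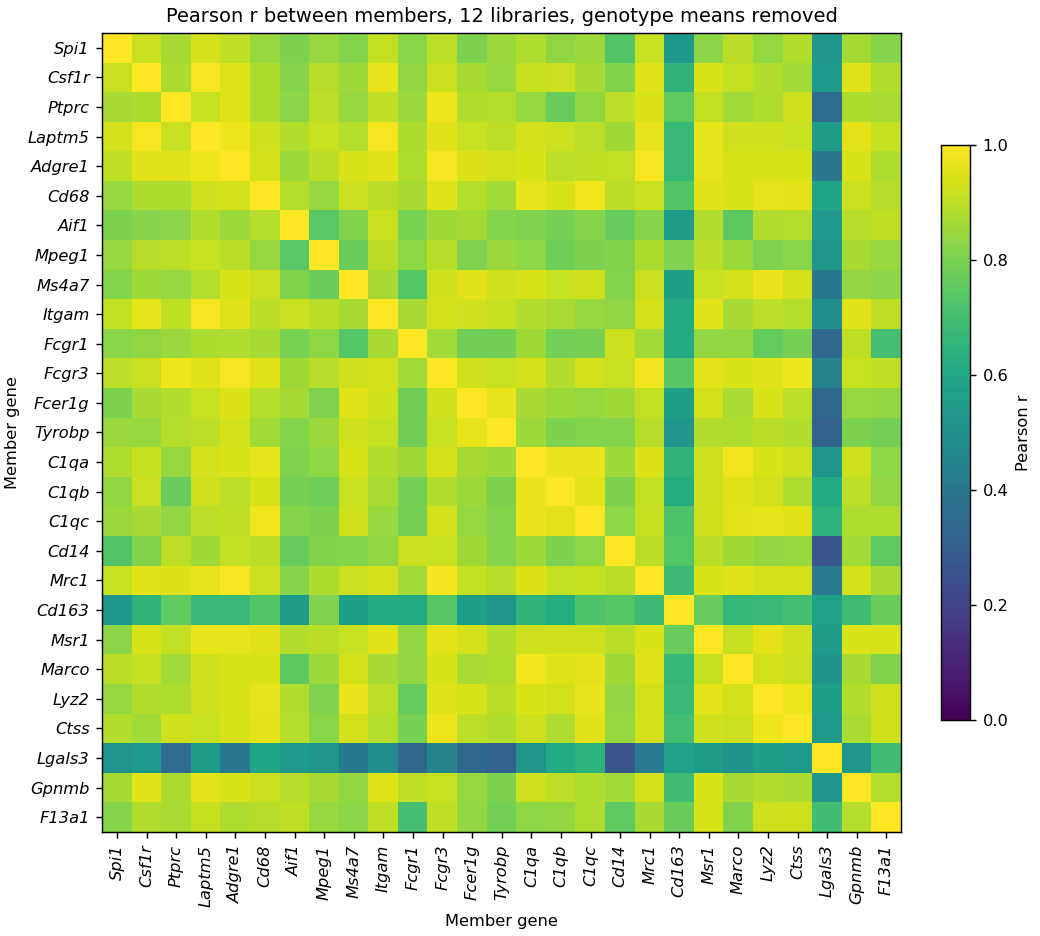
Pearson r between each pair of the 27 tested genes over 12 libraries, computed on log2 CPM after the genotype means were removed. Most pairs lie near the median of 0.883, and the rows of Lgals3 and Cd163 are darker than the rest.

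Genes outside the list followed it as closely. The 10 highest were Adam8 (r = 0.995), C3ar1 (0.991), Lilrb4a (0.985), Havcr2 (0.985), Bst1 (0.984), Vav1 (0.983), Atp8b4 (0.982), Slc11a1 (0.980), Itgb2 (0.980) and Clec4a1 (0.980). C3ar1 is the receptor for the complement fragment C3a, Itgb2 is the β chain that pairs with the product of Itgam, and Slc11a1 is a metal transporter of the phagosome. Itgb2 averaged 20.2 CPM in WT, 9.02 CPM in TA and 22.9 CPM in TD. Adam8, a membrane protease of myeloid cells, averaged 63.9 CPM in WT, 32.3 CPM in TA and 84.2 CPM in TD.

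TD was then compared with WT. Of the 27 tested genes, 3 rose in TD and 0 fell at an adjusted p below 0.05 (edgeR quasi-likelihood test, Benjamini-Hochberg adjustment over all 15117 tested genes). Over all tested genes, 15.1% rose and 14.2% fell in this comparison, so the share of members that rose (11.1%) was near the background. At an unadjusted p below 0.05, 5 members were higher (Cd163, F13a1, C1qa, Mrc1 and Cd14) and 0 lower, against 20.7% and 19.4% of all tested genes. The median log2 fold change of the members was 0.35, against 0.01 over all tested genes, with 23 positive and 4 negative values. The median SE was 0.36 for members and 0.13 over all genes, so a difference had to be larger among the members to pass.

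Cd163, the scavenger receptor for hemoglobin bound to haptoglobin (chr6:124304656-124330527, plus strand), showed the largest difference of the list. It measured 2.75, 7.002, 6.49 and 2.85 CPM in WT and 19.4, 25.9, 30.0 and 28.9 CPM in TD. The groups did not overlap, as for 32.2% of all tested genes in this comparison. The rise was 5.42-fold (log2 fold change 2.44 ± 0.31 SE, adjusted p = 9.24e-05). Cd163 passed the test under all 19 alternative fits, which include leaving out each library in turn.

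F13a1 encodes the A chain of coagulation factor XIII, a transglutaminase of resident macrophages (chr13:36867178-37050244, minus strand). It measured 35.9, 57.4, 64.9 and 18.4 CPM in WT and 122, 95.2, 87.8 and 106.5 CPM in TD, again without overlap. The rise was 2.33-fold (log2 fold change 1.22 ± 0.34 SE, adjusted p = 0.0125). C1qa encodes the A chain of C1q, the recognition molecule of the classical complement pathway (chr4:136895917-136898803, minus strand). It measured 9.55, 18.2, 9.71 and 6.80 CPM in WT and 24.2, 18.3, 21.2 and 16.1 CPM in TD. TD replicate 4 lay below WT replicate 2, so the groups overlapped. The fitted rise was 1.80-fold (log2 fold change 0.85 ± 0.29 SE, adjusted p = 0.0385).

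The partner chains of C1qa did not pass. C1qb measured 16.1, 33.8, 15.5 and 8.11 CPM in WT and 32.5, 27.9, 24.7 and 19.7 CPM in TD (log2 fold change 0.51 ± 0.36 SE, adjusted p = 0.305). C1qc measured 12.2, 25.2, 13.8 and 7.29 CPM in WT and 24.4, 20.1, 19.3 and 14.2 CPM in TD (log2 fold change 0.41 ± 0.37 SE, adjusted p = 0.435). In both genes WT replicate 2 was above every TD library. Mrc1, the mannose receptor CD206, measured 21.8, 84.1, 33.6 and 17.2 CPM in WT and 131, 72.0, 73.7 and 92.6 CPM in TD. Its log2 fold change of 1.23 ± 0.47 SE just missed the threshold (adjusted p = 0.0571), and WT replicate 2 lay inside the TD range.

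The genes that define the lineage showed no difference past the threshold between TD and WT. Spi1 measured 4.41, 8.89, 4.46 and 2.47 CPM in WT and 8.18, 2.96, 3.83 and 4.40 CPM in TD. Csf1r measured 16.55, 41.6, 21.7 and 9.15 CPM in WT and 27.5, 16.4, 17.5 and 21.5 CPM in TD. The groups overlapped for both genes. Adgre1 measured 25.7, 71.0, 34.1 and 18.5 CPM in WT and 66.5, 43.8, 47.3 and 53.9 CPM in TD. Itgam measured 9.55, 21.7, 10.9 and 3.23 CPM in WT and 18.2, 9.70, 11.6 and 16.8 CPM in TD. Ptprc measured 3.48, 11.4, 6.59 and 3.23 CPM in WT and 8.52, 5.01, 6.01 and 9.09 CPM in TD. The highest library of each of these genes was WT replicate 2, and their log2 fold changes ran from -0.11 (Csf1r) to 0.50 (Adgre1). The count of 3 rises depended on single libraries. It was 12 when WT replicate 2 was left out and 6 when TA replicate 2 or TA replicate 3 was. Of all tested genes, 14.7%, 15.5% and 15.8% rose in these fits. Clec7a was among the member rises in each case because it then passed the filter. It passed only through its TD libraries, where its counts were highest, so its rise gives no support of its own. The median log2 fold change became 0.82 without WT replicate 2 and 0.19 without WT replicate 4. The call of C1qa was lost without WT replicates 1, 3 or 4 or TD replicates 1, 2 or 3 (adjusted p 0.0554 to 0.115) and with DESeq2 (adjusted p = 0.0779).

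**Figure D3:**
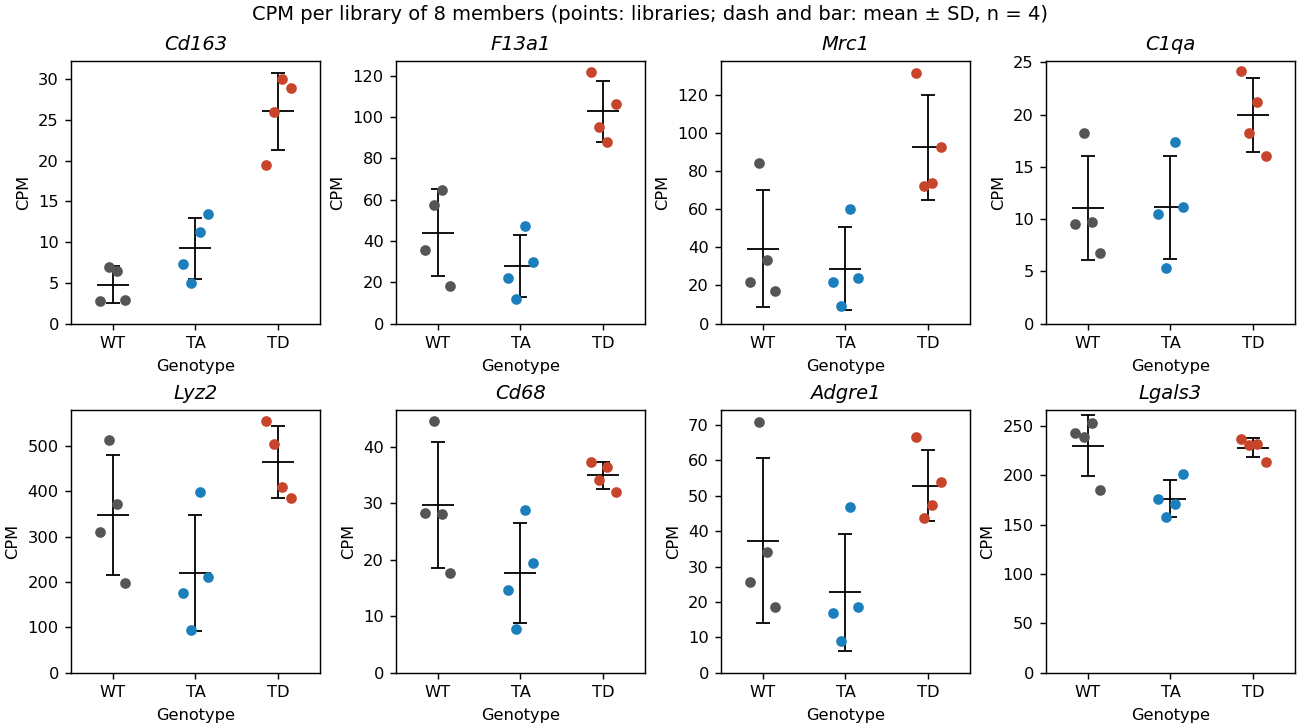
CPM of 8 genes in each library (points), by genotype, with the mean and SD of 4 libraries (dash and bar). The 4 TD libraries lie above all WT and TA libraries for Cd163 and F13a1, whereas WT replicate 2 lies within or above the TD range for Mrc1, C1qa, Lyz2, Cd68 and Adgre1.

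TA was compared with the same WT libraries, so its differences share their WT values with those above. Of the 27 genes, 0 rose and 1 fell, against 6.72% and 4.41% of all tested genes. At an unadjusted p below 0.05, 1 gene was higher (Cd163) and 8 were lower, against 13.9% and 11.2% of all tested genes. The median log2 fold change of the members was -0.59, against -0.01 over all genes, and 25 of the 27 values were negative. No member had groups without overlap, against 13.6% of all tested genes.

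The gene that fell was Lgals3. It measured 243.5, 239, 253 and 185 CPM in WT and 176, 158, 171 and 202 CPM in TA (log2 fold change -0.38 ± 0.10 SE, adjusted p = 0.0167). WT replicate 4 lay inside the TA range. Lgals3 was the member that varied least between the libraries of WT and of TA. Spi1 measured 1.58, 1.11, 3.51 and 2.33 CPM in TA, with TA replicate 3 above WT replicate 4 (log2 fold change -1.24 ± 0.41 SE, adjusted p = 0.0605). Cd163 and C1qa (0.01 ± 0.30 SE on the log2 scale) were the members with a positive value, and Cd163 measured 7.31, 5.04, 11.2 and 13.4 CPM in TA (log2 fold change 0.95 ± 0.31 SE, adjusted p = 0.0618). Neither Spi1 nor Cd163 passed the threshold.

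The remaining defining genes were spread widely in TA. Adgre1 measured 17.0, 8.98, 46.8 and 18.5 CPM, Csf1r 12.1, 6.21, 19.2 and 10.7 CPM, and Itgam 3.57, 1.78, 11.4 and 3.501 CPM. Ptprc measured 1.52, 0.984, 6.57 and 2.72 CPM. Tyrobp measured 2.52, 2.52, 10.5 and 3.39 CPM in TA, against 6.23, 12.3, 6.00 and 3.67 CPM in WT and 9.03, 7.01, 6.44 and 6.80 CPM in TD. In each of these genes TA replicate 3 was the highest TA library and lay within the WT range. When TA replicate 3 was left out, 13 members fell, against 3.85% of all tested genes, and the members' median log2 fold change was -1.11. The median was -0.21 when WT replicate 2 was left out and -0.37 when TA replicate 2 was. Omitting WT replicate 4 gave 3 falls (Spi1, Csf1r and Lgals3), omitting TD replicate 1 gave 2 (Spi1 and Lgals3), and omitting WT replicate 1 or 3 gave 0, with an adjusted p of 0.0535 and 0.0550 for Lgals3. Of all tested genes, 3.48% fell without WT replicate 4 and 3.99% without TD replicate 1. Without WT replicate 1 or 3, 2.99% or 3.44% fell. Cd163 rose in TA over WT when either WT replicate 2 or TA replicate 2 was omitted.

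The mutants were then compared with each other. Of the 27 genes, 9 rose in TD over TA and 0 fell, a share of 33.3% for the rises against 7.33% of all tested genes; 9.37% of all tested genes fell. At an unadjusted p below 0.05, 22 members were higher and 0 were lower, against 15.7% and 15.5% of all tested genes. The median log2 fold change was 1.00, against 0.02 over all genes, and 26 of 27 values were positive, the exception being the sparsely counted Aif1. In 8 members every TD library was above every TA library, against 19.9% of all tested genes with no overlap in either direction.

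By role, the rises were spread over receptors, lysosomal proteins and secreted proteins. Among the scavenger receptors, 3 of the 5 tested genes rose. Mrc1 measured 21.9, 9.04, 59.8 and 24.2 CPM in TA and lay above these values in all TD libraries, a 3.20-fold rise (log2 fold change 1.68 ± 0.48 SE, adjusted p = 0.0244). Cd163 rose 2.81-fold (1.49 ± 0.29 SE on the log2 scale, adjusted p = 0.00260). Msr1, the class A scavenger receptor for modified lipoproteins, measured 9.53, 5.54, 17.6 and 10.2 CPM in TA, 24.1, 24.04, 22.5 and 24.6 CPM in TD and 13.5, 24.6, 17.3 and 8.66 CPM in WT. Its TD libraries were nearly equal and all above TA, a 2.21-fold rise (adjusted p = 0.0124). Marco, a related scavenger receptor of bacteria and particles, did not pass (log2 fold change 1.05 ± 0.39 SE, adjusted p = 0.0721).

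Among the lysosomal and secreted genes, F13a1, Lyz2, Ctss and Lgals3 rose and Gpnmb did not pass. F13a1 measured 22.3, 11.99, 47.3 and 30.1 CPM in TA, a 3.67-fold difference to TD (log2 fold change 1.88 ± 0.35 SE, adjusted p = 0.00186). Lyz2 measured 176, 94.6, 398 and 211 CPM in TA, 555, 504, 410 and 386 CPM in TD and 309, 512, 371 and 198 CPM in WT. TA replicate 3 lay inside the TD range, so the 2.11-fold rise (adjusted p = 0.0324) came with overlapping groups. Ctss measured 10.5, 5.90, 29.0 and 16.8 CPM in TA, 45.6, 32.7, 30.5 and 31.2 CPM in TD and 23.7, 40.8, 30.3 and 16.7 CPM in WT, a 2.24-fold rise of TD over TA (adjusted p = 0.0290). Lgals3 measured 237, 231, 232 and 214 CPM in TD, all above TA, with a rise of 1.29-fold (adjusted p = 0.0158).

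Among the 9 identity genes, Laptm5 and Cd68 rose. Laptm5, a lysosomal membrane protein of blood cells, measured 10.1, 5.72, 20.5 and 10.95 CPM in TA, 36.2, 23.7, 25.6 and 30.8 CPM in TD and 16.7, 36.0, 19.4 and 8.60 CPM in WT, a 2.44-fold rise of TD over TA (adjusted p = 0.0211). Cd68 measured 14.6, 7.69, 28.8 and 19.5 CPM in TA, 37.2, 34.1, 36.3 and 32.01 CPM in TD and 28.3, 44.6, 28.1 and 17.6 CPM in WT, a 1.97-fold rise (adjusted p = 0.0298). For both genes, the TD libraries were all above TA, while WT overlapped TD. Several others missed the threshold narrowly, among them Itgam (log2 fold change 1.47 ± 0.49 SE, adjusted p = 0.0523), Adgre1 (1.21 ± 0.41 SE, adjusted p = 0.0526), Spi1 (1.17 ± 0.41 SE, adjusted p = 0.0592) and C1qa (0.84 ± 0.29 SE, adjusted p = 0.0598). Of the 4 tested Fc receptor and adaptor genes (Fcgr1, Fcgr3, Fcer1g and Tyrobp) and the 3 C1q genes, 0 passed. C1qa measured 10.5, 5.35, 17.4 and 11.2 CPM in TA, C1qb 14.6, 5.23, 21.1 and 12.9 CPM, and C1qc 8.89, 3.51, 18.4 and 13.2 CPM.

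The number of 9 also turned on single libraries. Omitting TA replicate 3 raised it to 25, and omitting WT replicate 2 or WT replicate 4 raised it to 18 or 15. Clec7a was among the rises in all of these fits, having passed the filter only through its TD libraries. Of all tested genes, 11.5%, 7.61% and 7.28% rose in these fits. The number fell to 5 when TD replicate 1 or TD replicate 4 was left out, to 4 when TA replicate 1 or TA replicate 4 was, and to 3 when TA replicate 2 was. The shares of all tested genes were then 7.05% and 3.53%, 5.1% and 6.24%, and 3.75%, in the same order. F13a1, Cd163 and Msr1 passed in every one of these fits. Mrc1, Laptm5, Ctss, Cd68 and Lyz2 lost the call without TA replicate 1, 2 or 4 (adjusted p 0.0512 to 0.0897) and without some TD libraries, namely replicate 4 for Laptm5, replicates 1 and 4 for Mrc1 and Ctss, replicates 1, 2 and 3 for Lyz2 and all 4 in turn for Cd68 (adjusted p 0.0516 to 0.0710). Lgals3 lost it without TA replicate 2 (adjusted p = 0.0562). Lyz2 also lost it with DESeq2 (adjusted p = 0.0507).

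**Figure D4:**
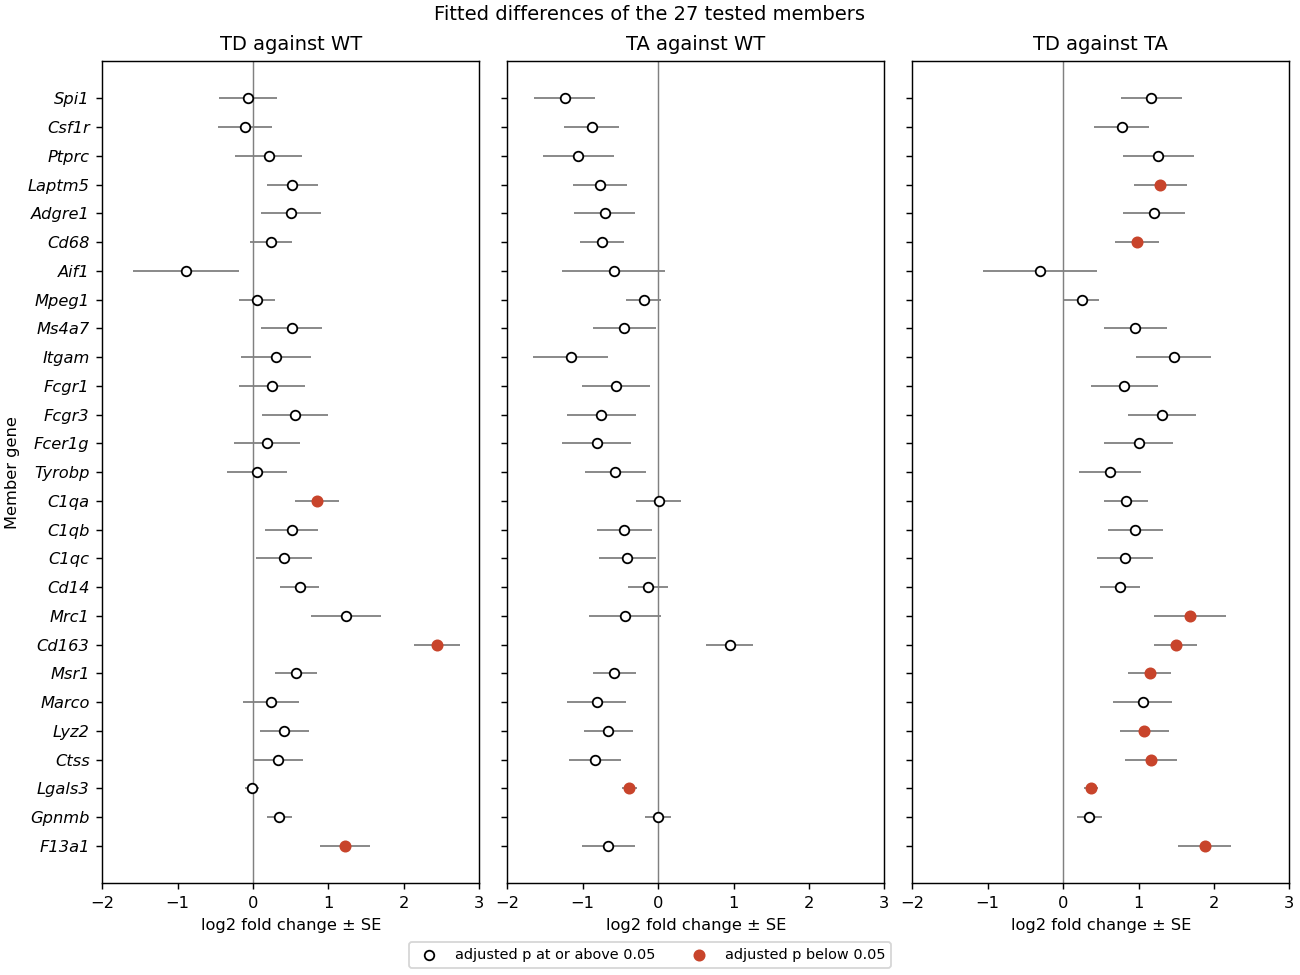
Fitted log2 fold change with its SE (points and bars) of the 27 tested genes in TD against WT, TA against WT and TD against TA, with filled points for an adjusted p below 0.05. There are 3 filled points in the first panel, 1 in the second, for Lgals3, and 9 in the third, and Cd163 alone has a positive value near 1 in TA against WT.

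Because the genes moved together, each was also set against the mean log2 CPM of the other 26 in the same library. This removes any library scaling, but it removes the shared rise and fall only for a gene that moves as much as the mean. This measure was chosen after the levels had been seen and is given as a description. Cd163 stood apart the most. Relative to the other members it was -1.90 ± 0.44 in WT, -0.27 ± 0.50 in TA and 0.16 ± 0.46 in TD on the log2 scale (mean ± SD, n = 4), so that both mutants lay above every WT library and the mutants overlapped each other. Mrc1 was 1.06 ± 0.41 in WT, 1.20 ± 0.32 in TA and 2.03 ± 0.24 in TD, and F13a1 was 1.38 ± 0.45, 1.30 ± 0.11 and 2.22 ± 0.09. For both, TD lay above all WT and TA libraries, which overlapped each other. Cd163, Mrc1 and F13a1 are all used as markers of resident tissue macrophages, but they were picked here by their values. Other genes of that kind, given below, did not all rise in TD.

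Other members shifted the other way or not at all. Lyz2 was nearly constant relative to the rest, at 4.54 ± 0.15 in WT, 4.37 ± 0.05 in TA and 4.47 ± 0.23 in TD. Mpeg1, the pore-forming perforin-2, was lower in TD (1.04 ± 0.21) than in every WT (1.47 ± 0.13) or TA (1.94 ± 0.47) library. Csf1r was lower in TD (-0.19 ± 0.17) than in every WT library (0.30 ± 0.23), with the reservation on its overlap given above. Spi1 was lower in TA (-2.43 ± 0.20) than in every WT library (-1.83 ± 0.12), whereas in TD (-2.42 ± 0.45) it overlapped WT. C1qa was higher in TA (-0.02 ± 0.18) than in every WT library (-0.62 ± 0.17), and C1qb and C1qc overlapped between all genotypes. Gpnmb was lower in TD (3.65 ± 0.14) than in every TA library (4.45 ± 0.48). Gpnmb and Mpeg1 moved less than the mean of the others. From TA replicate 2 to TA replicate 3, relative Gpnmb went from 4.925 to 3.843 and relative Mpeg1 from 2.571 to 1.447. In CPM, Gpnmb averaged 266 in TD and 209 in TA. Mpeg1 averaged 46.6 CPM in TD, 44.9 in WT and 39.3 in TA. Their lower relative values in TD therefore did not mean lower levels.

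**Figure D5:**
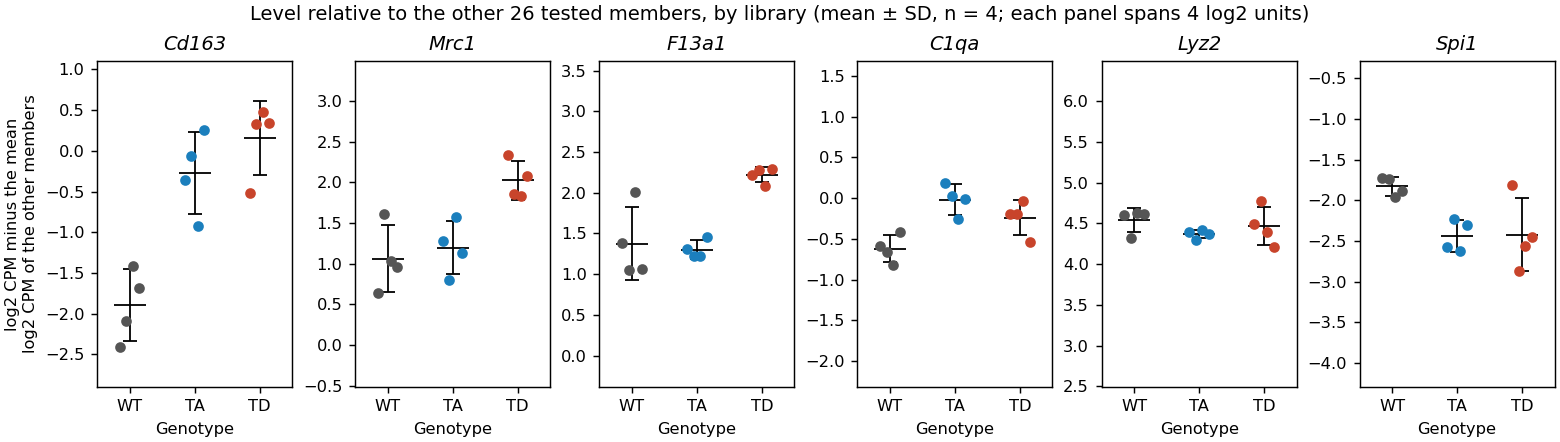
Level of 6 genes relative to the mean log2 CPM of the other 26 tested genes in the same library (points), with mean and SD of 4 libraries, by genotype; each panel spans 4 log2 units with its own origin. Cd163 is lowest in WT, Mrc1 and F13a1 are highest in TD, C1qa is higher in TA than in WT, Lyz2 is level, and Spi1 is lower in TA than in WT.

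Genes that work with the members were taken from fixed lists. The counts of each list below, including those of other cell types, stand against these shares of all tested genes. In TD against WT, 15.1% rose and 14.2% fell. In TA against WT, 6.72% rose and 4.41% fell. In TD against TA, 7.33% rose and 9.37% fell. In the list of 24 tested leukocyte surface and cytoskeletal genes (of 26), 22 had an r above 0.8 with the members' mean. Of these 24, 2 rose in TD over WT, 2 fell in TA against WT and 10 rose in TD over TA. The 2 rises in TD over WT were a smaller share than that of all tested genes. Fcgr2b, the inhibitory IgG receptor, rose in TD over both WT (log2 fold change 1.68 ± 0.33 SE, adjusted p = 0.00141) and TA (1.73 ± 0.33 SE, adjusted p = 0.00250). Cd52, a small surface glycoprotein of leukocytes, fell in TA against WT (-1.72 ± 0.44 SE, adjusted p = 0.0192). Itgb2 fell in TA against WT (-1.16 ± 0.35 SE, adjusted p = 0.0408) and was higher in TD than in TA (1.33 ± 0.35 SE, adjusted p = 0.0154). The count of 10 became 22 when TA replicate 3 was left out and 3 when TA replicate 1, 2 or 4 or TD replicate 4 was. It became 6 without TD replicate 1 and 4 without TD replicate 3. Of all tested genes, 4.11% rose in TD over TA without TD replicate 3, and the shares that rose in TD over TA in the other fits are given above.

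The kinases and adaptors that act below DAP12 and the Fc receptor γ chain were all measured (15 of 15). Lyn, a Src family kinase, rose in TD over WT (log2 fold change 0.72 ± 0.20 SE, adjusted p = 0.0114), as did Lcp2, the adaptor SLP-76 (0.84 ± 0.30 SE, adjusted p = 0.0456). Inpp5d, the phosphatase SHIP1, rose in TD over TA (1.43 ± 0.39 SE, adjusted p = 0.0186), and 0 of the 15 changed in TA against WT. The 2 rises in TD over WT and the 1 in TD over TA were near the shares of all tested genes. Of the 5 subunits of the phagocyte NADPH oxidase, Cyba rose in TD over WT (0.44 ± 0.14 SE, adjusted p = 0.0238) and over TA (0.46 ± 0.14 SE, adjusted p = 0.0334), Cybb rose in TD over TA (1.16 ± 0.31 SE, adjusted p = 0.0183), and Ncf4 fell in TA against WT (-1.98 ± 0.62 SE, adjusted p = 0.0496). All 5 had an r of 0.913 or more with the members' mean.

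Genes of resident and alternatively activated macrophages were a list of 12, of which 10 were tested. Of these, 5 rose in TD over WT, 1 rose and 1 fell in TA against WT, and 4 rose in TD over TA. Cd209f, a lectin receptor with only 0 to 25 counts per library, rose in TD over WT (log2 fold change 3.15 ± 0.61 SE, adjusted p = 0.00132). Clec10a, a galactose-binding lectin receptor, rose in TD over WT (log2 fold change 2.05 ± 0.31 SE, adjusted p = 2.69e-04) and over TA (1.84 ± 0.31 SE, adjusted p = 9.44e-04). Lyve1, a hyaluronan receptor that macrophages share with lymphatic vessels, rose in TD over WT (1.30 ± 0.37 SE, adjusted p = 0.0145). Chil3, encoding the secreted lectin Ym1, fell in TA against WT (-1.40 ± 0.35 SE, adjusted p = 0.0168).

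Ligands and chemoattractants for myeloid cells can be made by fat cells, fibroblasts and endothelial cells as well as by macrophages. Csf1, the growth factor of macrophages, did not pass in any comparison (log2 fold change of TD over WT 0.17 ± 0.08 SE, adjusted p = 0.129), nor did Il34, the other ligand of the CSF1 receptor (-0.15 ± 0.15 SE, adjusted p = 0.501). Of the 10 tested ligands, 7 rose in TD over WT, 3 rose in TA over WT and 4 rose in TD over TA. Ccl8, a monocyte chemokine, rose in TD over WT by 2.09 ± 0.42 SE on the log2 scale (adjusted p = 0.00154). Cd200, the ligand of an inhibitory myeloid receptor, rose in TD (1.80 ± 0.44 SE, adjusted p = 0.00630) and in TA (1.46 ± 0.45 SE, adjusted p = 0.0483) over WT. Cxcl12 rose in TD (1.28 ± 0.16 SE, adjusted p = 8.18e-05) and in TA (0.95 ± 0.15 SE, adjusted p = 7.79e-04) over WT. Cx3cl1 rose in TD over WT (1.20 ± 0.19 SE, adjusted p = 3.66e-04), while its receptor gene Cx3cr1 had 0 to 2 counts per library.

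Markers of other cell types also differed between the genotypes. Summed levels of 6 preadipocyte and fibroblast genes ran from 4055 to 4810 CPM in WT, 3834 to 6776 CPM in TA and 6366 to 8791 CPM in TD, with 5 of 6 risen in TD over WT and 4 in TA. Endothelial markers summed to 25.0 to 52.7 CPM in WT, 45.9 to 82.7 CPM in TA and 95.5 to 121 CPM in TD, and 5 of 6 rose in TD over WT. Mast cell markers, another myeloid lineage, summed to 7.2 to 15.8 CPM in WT, 14.2 to 44.8 CPM in TA and 22.1 to 35.6 CPM in TD; of 6 tested, 4 rose in TD and 6 in TA over WT. Skeletal muscle markers summed to 1.1 to 6.0 CPM in WT, 10.8 to 55.3 CPM in TA and 12.04 to 208 CPM in TD, with 6 of 6 tested risen in TD over WT and 4 in TA. Adipocyte markers moved the other way in TD, with 5 of 6 fallen against WT, and summed to 9800 to 11690 CPM in WT, 10930 to 14000 CPM in TA and 6641 to 8089 CPM in TD. The part of these cell types in the differences of the myeloid genes was not tested.

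Lymphoid markers were at or near zero. No T cell, B cell or NK cell marker passed the filter, and their summed levels reached at most 0.835, 1.055 and 0.167 CPM in a library. The 10 neutrophil markers summed to 9.37 to 28.9 CPM in WT, 8.92 to 19.9 CPM in TA and 19.2 to 28.5 CPM in TD. Of these, 3 were tested, and 2 of the 3 had an r above 0.8 with the members' mean. Mmp8, a collagenase of neutrophils, made up most of the sum, with means of 16.9 CPM in WT, 7.02 CPM in TA and 19.9 CPM in TD. It had 37 to 490 counts per library and rose in TD over TA (log2 fold change 1.49 ± 0.40 SE, adjusted p = 0.0186). S100a8, a calcium-binding protein of neutrophils and monocytes, had 23 to 92 counts, rose in TA over WT (1.32 ± 0.23 SE, adjusted p = 0.00130) and was lower in TD than in TA (-0.95 ± 0.23 SE, adjusted p = 0.00975). Its partner S100a9 had 0 to 1 counts and Ly6g, a surface marker of neutrophils, 0 in all libraries. The 7 dendritic cell markers summed to 14.3 to 21.1 CPM per library, with 2 tested and 0 called in any of the 3 comparisons. Zbtb46, a transcription factor that endothelial cells also express, had 163 to 253 counts, while Flt3, Siglech and Cd209a had at most 1 count per library. The part of these lineages in the differences of the members was not tested. H2-Aa, a class II antigen-presentation gene, had 0 to 4 counts, while H2-Ab1 had 43 to 128. The genes of the general lysosome, which all cells share, did not follow the list (median r 0.04 with the members' mean over 15 genes) and summed to 7013 to 7857 CPM in all libraries.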

How the data were processed

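RNA-seq of 12 libraries (4 each of WT, TA and TD) was analysed from the deposited read counts per gene. Per the labels and the study's methods, the authors used bcl2fastq 2.17.1.14, cutadapt 1.9.1, HISAT2 2.0.1 (GRCm38) and HTSeq 0.6.1 and deposited raw counts with no normalization. Positions came from GENCODE annotation of that build, which held 99.8% of the 55573 IDs.

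Counts were fitted with edgeR 4.0.16 (R 4.3.3; TMM scaling, filterByExpr with a minimum count of 10 and total of 15, quasi-likelihood test over all 12 libraries) and p-values adjusted over 15117 genes. CPM used TMM-scaled totals, and log2 CPM a prior count of 2. On simulated data for TD against WT (15117 genes), 90.8% of 200 changed genes were recovered, 81.2% at a log2 change of 1 and 98.2% at 2. Of the genes called there, 5.85% were unchanged. The changed genes were drawn from all genes, so these rates do not describe the members, whose spread was larger. Replicate pairs differed beyond sampling noise (chi-square per degree of freedom 4.67 to 35.3, 18 pairs), so none were merged. All members were accounted for, with values per library for those that passed in some comparison or define the lineage; of each other list, at most 4 genes that passed were named by size of change, and the 10 genes most like the members by Pearson r. Csf1, Il34, Arg1, Retnla, Folr2, Vsig4, Ly6g, S100a9, Flt3, Siglech, Cd209a and H2-Aa were named after their values were seen. Members and lists were chosen with earlier results of these data known. Alternatives were RLE factors, library totals, DESeq2 1.42.0, other filters, pairs of genotypes, a replicate block, a fold threshold and leaving out each library.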

Additional observations from a re-analysis of the deposited data

Results flagged for a closer look

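Of 81 groups of 4 libraries looked at (27 genes in 3 genotypes), 7 held a library whose distance to its nearest neighbour exceeded Dixon's 95% critical share of the group's range, where chance gives about 1 in 20. Aif1 was at 0.110 CPM in WT replicate 4 and at 0.595 to 0.675 CPM in the other WT libraries. Fcer1g was at 10.4 CPM in TA replicate 3 and at 1.60 to 2.57 CPM in the other TA libraries. Tyrobp was at 10.5 CPM in the same library and at 2.52 to 3.39 CPM in the others. Cd14 was at 10.3 CPM in WT replicate 2 against 5.26 to 5.75 CPM, and Marco at 97.5 CPM in that library against 23.8 to 35.5 CPM. Ctss was at 45.6 CPM in TD replicate 1 against 30.5 to 32.7 CPM, and Gpnmb at 228 CPM in TD replicate 2 against 275 to 282 CPM.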

How the results depend on the processing

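Directions of the members' medians held under every alternative run. With no filter on low counts, 14 members were higher in TD than in WT, 1 was higher and 19 lower in TA than in WT, and 26 were higher in TD than in TA, while 8.57%, 4.54%, 3.41% and 5.77% of the 29115 genes then tested were called in these directions; the cause was not tested. With 2 genotypes only in the fit, 5 and 15 members were higher in TD than in WT and TA. Of all genes tested there, 17.3% and 7.12% were higher. DESeq2 called 2 members lower in TA than in WT (Spi1 and Lgals3), against 5.63% of all tested genes. With a fold threshold of 1 on the log2 scale, 0 members were lower. Leaving out each library gave 2 to 12 members higher in TD than in WT and 3 to 25 higher in TD than in TA. The highest count of both includes Clec7a, which passed the filter only through TD. In TA against WT, 0 to 1 members were higher and 0 to 13 lower. Of all tested genes, 10.6% to 15.8% were then higher in TD than in WT and 3.53% to 11.5% higher in TD than in TA. In TA against WT, 4.54% to 7.66% were higher and 2.99% to 4.91% lower. Of the genes called in a comparison, F13a1 and Cd163 passed in TD against both genotypes and Msr1 in TD against TA under all alternative fits. Replicate numbers did not pair the libraries: the deviations of same-numbered libraries had r from -0.237 to 0.196. With the replicate block 3, 1 and 10 members passed in the 3 comparisons, against 3, 1 and 9 without it. Of all tested genes, 14.6% then rose in TD over WT. In TA against WT 3.96% fell, and in TD against TA 7.4% rose. The common biological coefficient of variation was 12.9%, but the members' larger spread, with a median SE of 0.36 to 0.37, sets what 4 libraries per genotype can show.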
